A study of Mus musculus with 6 samples.

Results

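The genes described here encode proteins of the mitochondrial ribosome and were chosen by name: rows of the gene table whose symbol is Mrpl or Mrps followed by a number. The rule found 78 of 15238 genes, 49 named for the large subunit (Mrpl) and 29 for the small subunit (Mrps). All 78 are annotated as protein-coding, they lie on 17 chromosomes, and none of them is on X or Y. RNA was sequenced in bulk from fibroblasts sorted out of the intestine of Balb/c mouse pups at postnatal day 9 (P9), as cells negative for CD45, EpCAM and CD31 and positive for podoplanin. The control group was 3 wild-type libraries (replicates 1, 3 and 4), and the other group was 3 libraries from DdblGata1 pups (replicates 4, 9 and 10). DdblGata1 mice carry a deletion in the promoter of Gata1, a transcription factor of blood cells, in all their tissues, and lack eosinophils. The title of the series asks whether eosinophils promote smooth muscle differentiation in villi after birth. Whether a library stands for a pup of its own is not in the labels, so the errors below measure the spread between libraries, which may be technical.

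Mitochondria keep a small genome of their own, whose messenger RNAs encode membrane subunits of the respiratory chain and of ATP synthase. The ribosome that translates them combines ribosomal RNA made from that genome with proteins that are all encoded in the nucleus, made in the cytosol and imported. The large subunit joins amino acids and feeds the new chain towards the inner membrane, and the small subunit binds and decodes the messenger RNA. Some of these proteins descend from bacterial ribosomal proteins and others are found in mitochondria only. Nuclear respiratory factor 1 (NRF1) and the ETS-family factor GABP, also called NRF2, are known activators of nuclear genes for mitochondrial proteins.

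Gene totals were 28110454 to 31210800 estimated counts per library, and a member had between 92 and 1391 counts in a library. Fibroblast markers were abundant, with summed values of 111400 to 159000 CPM (counts scaled to library size and between libraries) over 10 genes. Of 8 eosinophil markers, 1 was in the gene table, Ccr3, with 0.36 to 1.104 CPM in wild-type against 0.1655 to 0.2583 in DdblGata1 libraries. Epx and Ear6 had 0 estimated counts in all 6 libraries. Prg2 had 7, 3 and 2 estimated counts in wild-type against 0, 26 and 11 in DdblGata1 libraries. For Il5ra they were 4, 7.41 and 1.12 against 1, 11.1 and 13.6. Siglecf, Ear1 and Ear2 had at most 16, 4 and 3, each in a wild-type library. The markers thus did not all go the same way. Gata1 had 1 estimated count in wild-type replicate 1 and 0 in the others, so these cells gave no check of the genotype. Wild-type replicate 1 stood apart: its summed epithelial markers were 1309 CPM, against 238.6 to 349.4 CPM in the other 5 libraries, and its leukocyte markers 102.1 against 32.29 to 45.29 CPM, although the sort was set to leave out both cell types. For that reason many of the values below are also given without it. In bulk samples, fewer cells of a type and less RNA per cell cannot be told apart.

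Promoter sequences are shown for 5 members because they carry the letters that NRF1, ETS factors or YY1, a zinc finger factor, are known to bind. Their expression differences also lie at both ends of the range described below. Because they were picked for both traits, they cannot show whether letters and differences go together. Each runs from 250 bases before to 50 bases after the RefSeq start (GRCm38.p6), 5′ to 3′ on the gene's strand. Capitals mark a match, on either strand, to GCGCA, any base and GCGC (NRF1), CCGGAAG (ETS) or AAGATGGCG (YY1). Mrpl12 (chr11:120484387-120484686, plus strand) has an NRF1 match that begins 81 bases before the start.
Mrpl12: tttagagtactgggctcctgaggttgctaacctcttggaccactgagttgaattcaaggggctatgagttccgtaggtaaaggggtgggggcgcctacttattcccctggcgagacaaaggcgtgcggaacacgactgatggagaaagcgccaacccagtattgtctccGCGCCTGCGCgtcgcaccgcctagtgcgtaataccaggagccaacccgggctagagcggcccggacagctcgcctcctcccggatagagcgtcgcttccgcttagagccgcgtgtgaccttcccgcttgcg
Mrpl27 (chr11:94653541-94653840, plus strand) has an ETS match 55 bases before the start.
Mrpl27: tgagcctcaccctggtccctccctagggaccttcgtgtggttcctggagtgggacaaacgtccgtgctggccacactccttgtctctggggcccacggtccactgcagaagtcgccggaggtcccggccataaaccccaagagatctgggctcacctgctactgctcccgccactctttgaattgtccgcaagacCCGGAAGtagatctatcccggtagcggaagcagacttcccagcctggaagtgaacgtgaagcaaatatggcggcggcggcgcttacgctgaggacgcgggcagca
Mrpl32 (chr13:14612988-14613287, minus strand) has an NRF1 match 87 bases before the start.
Mrpl32: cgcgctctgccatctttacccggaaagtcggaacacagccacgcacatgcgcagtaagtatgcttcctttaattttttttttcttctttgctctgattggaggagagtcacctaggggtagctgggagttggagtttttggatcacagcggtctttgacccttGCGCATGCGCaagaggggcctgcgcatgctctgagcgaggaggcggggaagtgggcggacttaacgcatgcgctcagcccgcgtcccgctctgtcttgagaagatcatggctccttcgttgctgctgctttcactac
Mrps21 (chr3:95871465-95871764, minus strand) has an NRF1 match 91 bases before and an ETS match from base 18 after the start.
Mrps21: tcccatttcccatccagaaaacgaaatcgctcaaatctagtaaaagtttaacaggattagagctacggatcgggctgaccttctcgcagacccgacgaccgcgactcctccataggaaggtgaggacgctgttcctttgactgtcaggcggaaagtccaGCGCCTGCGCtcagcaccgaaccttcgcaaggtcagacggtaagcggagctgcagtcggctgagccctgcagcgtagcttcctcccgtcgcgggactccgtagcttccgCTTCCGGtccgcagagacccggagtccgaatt
Mrps11 (chr7:78782881-78783180, plus strand) has a YY1 match 108 bases before the start.
Mrps11: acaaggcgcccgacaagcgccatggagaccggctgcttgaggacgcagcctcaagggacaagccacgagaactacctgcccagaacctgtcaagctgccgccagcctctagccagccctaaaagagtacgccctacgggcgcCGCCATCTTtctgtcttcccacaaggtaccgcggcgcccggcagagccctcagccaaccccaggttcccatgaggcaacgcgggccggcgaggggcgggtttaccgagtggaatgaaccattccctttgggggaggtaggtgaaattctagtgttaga

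A promoter window was found by symbol for 69 of the 78 members, 43 of the large and 26 of the small subunit. The ETS letters were present in 37.7% of the 69 members (34.9% large, 42.3% small), against 17.9% of 11490 tested genes with a window and 9.93% of all 27025 windowed genes. The NRF1 letters were in 18.8% (23.3% large, 11.5% small), against 10.3% and 5.19%. For YY1 the share was 11.6% (9.3% large, 15.4% small), against 3.12% and 1.64%. The letters GGGCGG, bound by SP factors, were in 39.5% of large-subunit and 65.4% of small-subunit promoters, against 66.2% of tested genes. Over both subunits together, CACGTG (E-box) was in 7.25% of members and 11.1% of tested genes, and CCAAT in 39.1% and 42.7%. Both strands were searched, and matches of different motifs could overlap. The shares of the ETS and YY1 letters were above that of tested genes in both subunits. For NRF1 this held in the large subunit, while the small subunit was near the share of tested genes, and the lower share of GGGCGG was in the large subunit. A match describes letters in this window and is no measure of binding.

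For the large subunit, 44 of 49 genes had a fitted log2 fold change (DdblGata1 minus wild-type) below 0, where 50.7% of all 15238 tested genes did. Their median was -0.26 (quartiles -0.35 and -0.10, range -0.87 to 0.29), beside -0.01 over all genes. For the small subunit, 26 of 29 were below 0 with a median of -0.19 (quartiles -0.28 and -0.12, range -0.69 to 0.16). The median was -0.22 in the 13 members with the NRF1 letters and -0.23 in the 56 without. With the ETS letters it was -0.20 (26 members) and without them -0.23 (43). For YY1 it was -0.30 (8) and -0.21 (61). Mrpl47 and Mrps10, at the low ends of their ranges, had no match to these letters. Whether the letters bear on the fold changes was not tested. No single gene passed the test: after adjustment over all genes, edgeR's quasi-likelihood fit left 0.0% of them past a threshold of 0.05. The smallest adjusted p of edgeR was 0.384 in the large and 0.461 in the small subunit. DESeq2 called 72 genes lower (0.473% of those tested) and 142 higher (0.932%), and 1 of the 78 members was among them, Mrpl47. At an unadjusted edgeR p under 0.05, used here only to count, 5 large-subunit genes and 1 small-subunit gene were lower and none was higher. Over all genes 645 (4.23%) were lower by that rule and 919 (6.03%) higher. The small-subunit count, 1 of 29, is near that background.

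**Figure D1:**
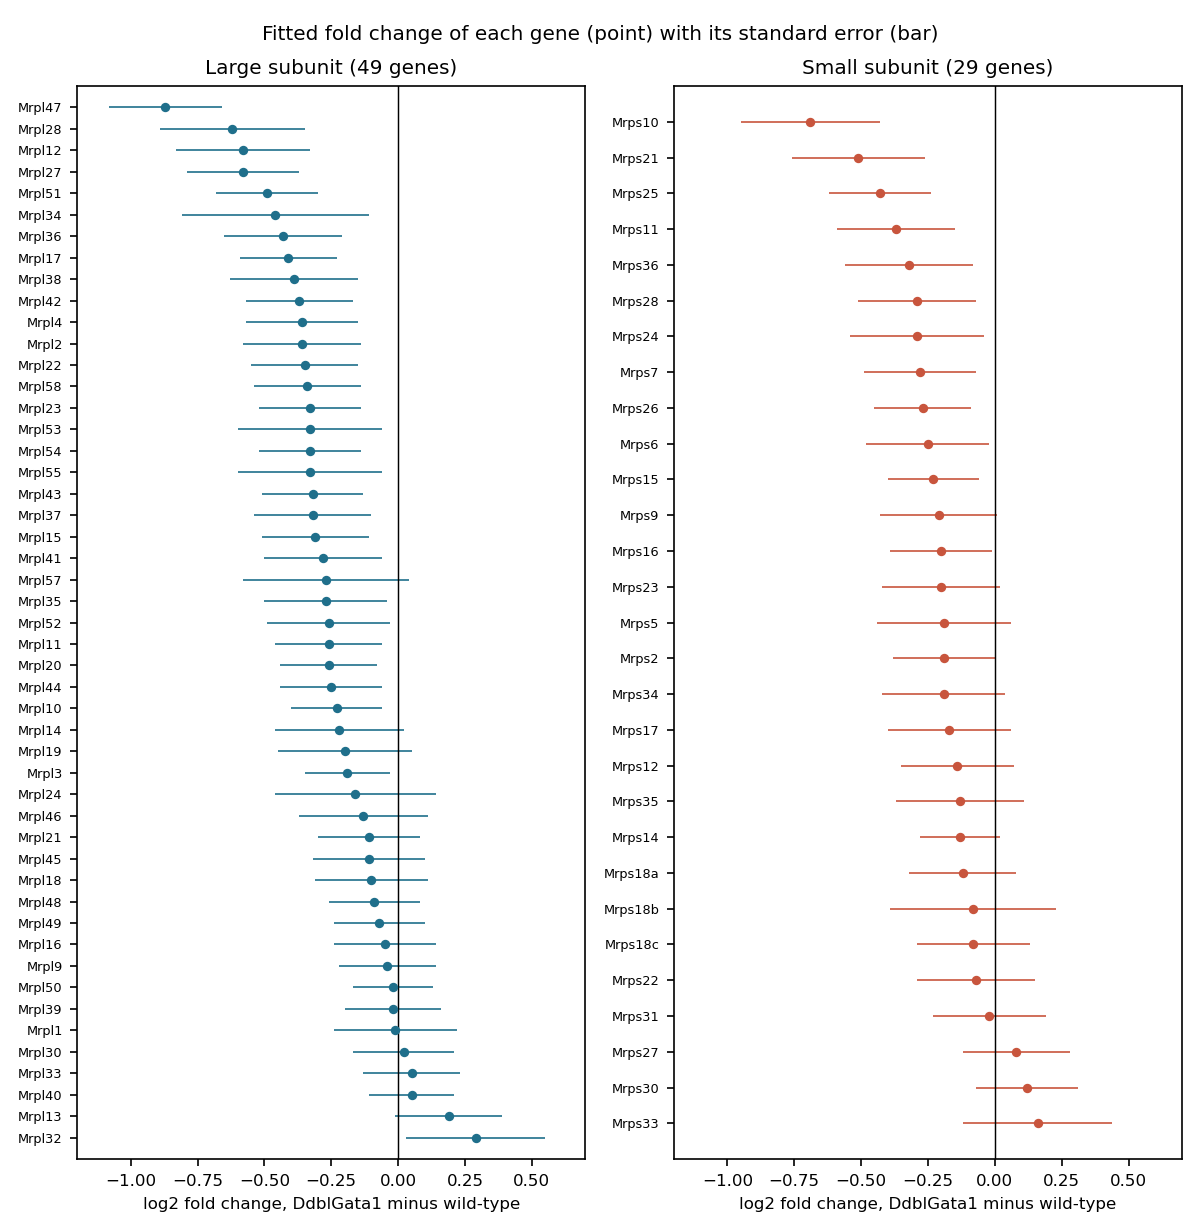
Fitted log2 fold change, DdblGata1 minus wild-type, of each of the 49 large-subunit and 29 small-subunit genes (points) with its standard error (bars). Most points lie left of 0, from -0.87 for Mrpl47 and -0.69 for Mrps10 to 0.29 for Mrpl32.

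In 12 of 49 large-subunit genes all 3 DdblGata1 libraries were below all 3 wild-type libraries (24.5%), and in 6 of 29 small-subunit genes (20.7%). The share over all genes was 7.34% in that direction. No member separated in the other direction, where 8.98% of all genes did. The 12 were Mrpl12, Mrpl17, Mrpl20, Mrpl22, Mrpl27, Mrpl28, Mrpl42, Mrpl44, Mrpl47, Mrpl51, Mrpl54 and Mrpl58. The 6 were Mrps10, Mrps11, Mrps15, Mrps21, Mrps25 and Mrps28. Some of these are named for this separation alone, after their values were seen.

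Most members had their highest value in wild-type replicate 1. Mean log2 CPM over the 49 large-subunit genes was 4.28 in wild-type replicate 1, 3.95 in replicate 3 and 3.90 in replicate 4. The DdblGata1 replicates 4, 9 and 10 had 3.81, 3.85 and 3.77. Over the 29 small-subunit genes it was 4.01, 3.77 and 3.67 in the wild-type and 3.65, 3.64 and 3.57 in the DdblGata1 group. On this scale the groups did not overlap, but wild-type replicate 4 lay closer to the DdblGata1 libraries than to wild-type replicate 1. In 39 large-subunit and 22 small-subunit genes the highest value was that of wild-type replicate 1, which held the highest value of 24.9% of all genes. The lowest value was in a DdblGata1 library for 40 and 24 genes, against 50.9% of all genes. Wild-type replicate 1 exceeded the mean of wild-type replicates 3 and 4 in 47 of 49 and 26 of 29 genes, by a median of 0.33 and 0.27 (log2). The DdblGata1 mean was below the mean of wild-type replicates 3 and 4 in 35 of 49 and 19 of 29 genes, by smaller medians (-0.14 and -0.12).

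Refitted without wild-type replicate 1, 38 large-subunit genes were below 0 with a median of -0.15, and 20 small-subunit genes with a median of -0.14, while 50.1% of all genes were below 0. The large-subunit count at an unadjusted edgeR p under 0.05 was then 2. The share of all genes at that p is not given here for the fit without wild-type replicate 1. The count is therefore not read as a result about the members. Epithelial markers, highest in that same library, were below 0 in 10 of 10 genes (median -0.93, and 0.45 without it), and leukocyte markers in 7 of 9 (median -0.84, and 0.03 without it). Their part in the members' difference was not tested. Smooth muscle markers were below 0 in 10 of 10 genes (median -0.68), with sums of 10550 to 18230 CPM in wild-type and 7241 to 11610 in DdblGata1 libraries. Those of interstitial cells of Cajal, which pace gut contraction, were below 0 in 6 of 6 (median -0.71), with sums of 531.2 to 824.5 and 254.9 to 501.7 CPM. Endothelial markers were below 0 in 6 of 10 genes (median -0.09), with sums of 73.26 to 94.35 CPM in wild-type against 122.4 to 177.3 in DdblGata1 libraries. That separation came from 1 gene, Tek: the other 9 markers summed to 44.5, 37.7 and 38.1, and 40.9, 42.4 and 26.4 CPM, with overlap. The part of smooth muscle and interstitial cells in the members' values was not tested either.

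**Figure D2:**
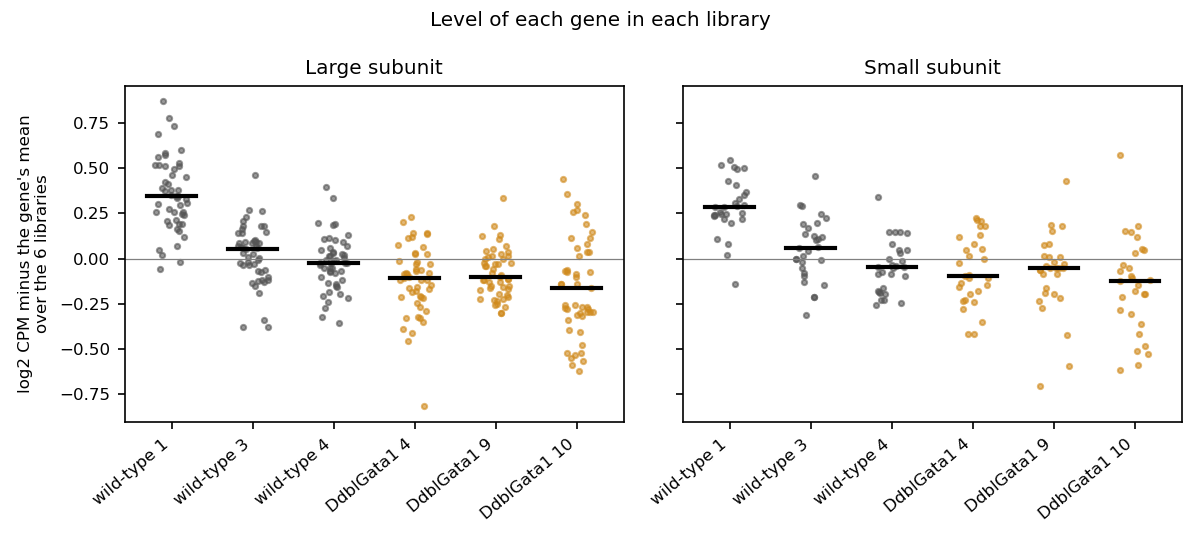
Log2 CPM of each large-subunit (left) and small-subunit (right) gene in each library, minus that gene's mean over the 6 libraries (points), with the median of each library (bars). Wild-type replicate 1 is highest in both panels, and the other 5 libraries lie closer together.

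Levels of different genes were compared in TPM, which takes transcript length into account. Summed over the large subunit, TPM was 2837, 2227 and 2280 in wild-type libraries, and 2227, 2248 and 2095 in DdblGata1 ones, ordered as before. The small subunit had sums of 1341, 1085 and 1095, and 1125, 1100 and 1018. These sums overlapped between the genotypes, unlike the means of log2 CPM. The ratio of the large to the small sum was 2.12, 2.05 and 2.08 in wild-type against 1.98, 2.04 and 2.06 in DdblGata1 libraries, so the subunits kept nearly the same proportion in all 6 libraries. A large-subunit gene had a median level of 33.8 TPM and a small-subunit gene 29.5 TPM. Levels spread 20.4-fold in the large subunit, from Mrpl1 (6.54 ± 0.943 TPM, SD over 6 libraries) to Mrpl30 (133 ± 17.5 TPM). They spread 8.08-fold in the small subunit, from Mrps30 (11.0 ± 1.42 TPM) to Mrps14 (89.2 ± 4.62 TPM).

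The largest difference among the members was that of Mrpl47 (ENSMUSG00000037531, GRCm38 chr3:32725397-32737605, minus strand), a large-subunit protein that sits near the exit of the tunnel for the new chain. Its CPM were 17.0, 12.7 and 13.3 in the wild-type group (replicates 1, 3 and 4) against 7.7, 8.57 and 7.3 in the DdblGata1 group (replicates 4, 9 and 10). Every DdblGata1 library lay below every wild-type library, without overlap. The means were 14.3 ± 2.37 and 7.86 ± 0.651 CPM (SD, n = 3), with a log2 fold change of -0.87 ± 0.21 (SE), an edgeR adjusted p of 0.384 and a DESeq2 adjusted p of 0.0215. Without wild-type replicate 1 the log2 fold change was -0.75.

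This difference lay in 1 of the transcripts of Mrpl47. Mrpl47-202, annotated as a processed transcript without a coding sequence and 523 bases long, had 13.2, 9.01 and 10.8 TPM in wild-type against 4.09, 4.66 and 3.21 TPM in DdblGata1 libraries. The groups did not overlap (11.0 ± 2.09 against 3.99 ± 0.731 TPM, SD, n = 3), and the exact two-sided permutation p was 0.1, the smallest that 3 against 3 libraries allow. The gene and transcript were picked by these values, and groups without overlap always give that p, so it adds no support. Mrpl47-201, the coding transcript of 3364 bases, had 5.79, 4.59 and 4.66, and 5.19, 5.53 and 5.16 TPM (5.02 ± 0.675 against 5.3 ± 0.206, exact permutation p 0.6). Those 2 groups overlapped. In estimated counts the short transcript had 46.5, 35.1 and 33.5, and 11.0, 16.0 and 12.7, beside 361, 262 and 250, and 244, 295 and 297 for the coding one, so it held few of the gene's reads. The deposited gene table follows TPM and so weights short transcripts up. With estimated counts simply summed, the log2 fold change of Mrpl47 was -0.10 ± 0.17 (edgeR adjusted p 0.801), and with coding transcripts only it was 0.02 ± 0.18 (0.967).

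**Figure D3:**
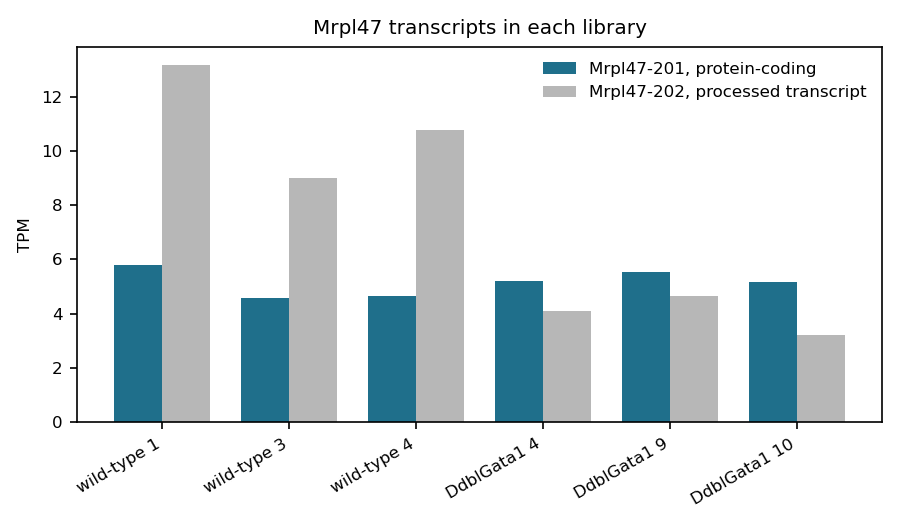
TPM of the coding (Mrpl47-201) and the short non-coding (Mrpl47-202) transcript of Mrpl47 in each library, 1 bar per transcript. The short transcript is at 9.01 to 13.2 TPM in wild-type and 3.21 to 4.66 TPM in DdblGata1 libraries, and the coding one between 4.59 and 5.79 TPM throughout.

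Mrpl28, homologous to a bacterial large-subunit protein, had 38.1, 22.1 and 19.4 CPM in wild-type against 18.6, 18.6 and 14.5 CPM in DdblGata1 libraries. Wild-type replicate 1 was far above the rest, and the nearest libraries of the groups were close together without crossing. Its log2 fold change was -0.62 ± 0.27 (edgeR adjusted p 0.486) and -0.29 without that library. Both with estimated counts simply summed and with coding transcripts only it was -0.46 ± 0.19. Mrpl27 (ENSMUSG00000024414, chr11:94653767-94660089), whose bacterial relative reaches towards the catalytic centre, had 29.0, 20.0 and 21.7, and 18.1, 15.5 and 13.7 CPM. Its groups did not overlap either (-0.58 ± 0.21, edgeR adjusted p 0.448, and -0.43 without wild-type replicate 1). The value was -0.27 ± 0.15 with estimated counts simply summed and -0.15 ± 0.22 with coding transcripts only. It was also the second most abundant member of the subunit, at 122 ± 31.3 TPM (SD over 6 libraries). The promoter with an ETS match above belongs to it.

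Mrpl12 (ENSMUSG00000039640, chr11:120484613-120489065) encodes the stalk protein that draws translation factors to the ribosome and has also been described as a partner of the mitochondrial RNA polymerase. It had 40.6, 24.4 and 26.2 CPM in wild-type against 23.4, 21.3 and 16.2 in DdblGata1 libraries. The groups did not overlap, though the nearest libraries were close (-0.58 ± 0.25, edgeR adjusted p 0.483, and -0.34 without wild-type replicate 1). The value stayed at -0.58 ± 0.23 with estimated counts simply summed and was -0.62 ± 0.27 with coding transcripts only. Mrpl51, a protein found only in mitochondrial ribosomes, had 32.2, 22.6 and 23.3, and 19.4, 18.1 and 18.1 CPM. Those groups were separate too (-0.49 ± 0.19, edgeR adjusted p 0.467). The value was -0.40 ± 0.15 with estimated counts simply summed and -0.15 ± 0.21 with coding transcripts only. Mrpl17, a protein near the tunnel exit, differed in pattern, with 27.2, 39.0 and 32.3, and 24.5, 23.8 and 25.7 CPM. Here wild-type replicate 1 was the lowest of its group, and the log2 fold change moved from -0.41 ± 0.18 (edgeR adjusted p 0.483) to -0.56 without it. It was -0.20 with estimated counts simply summed and -0.04 with coding transcripts only, and its leading transcript, Mrpl17-203, is annotated as subject to nonsense-mediated decay.

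**Figure D4:**
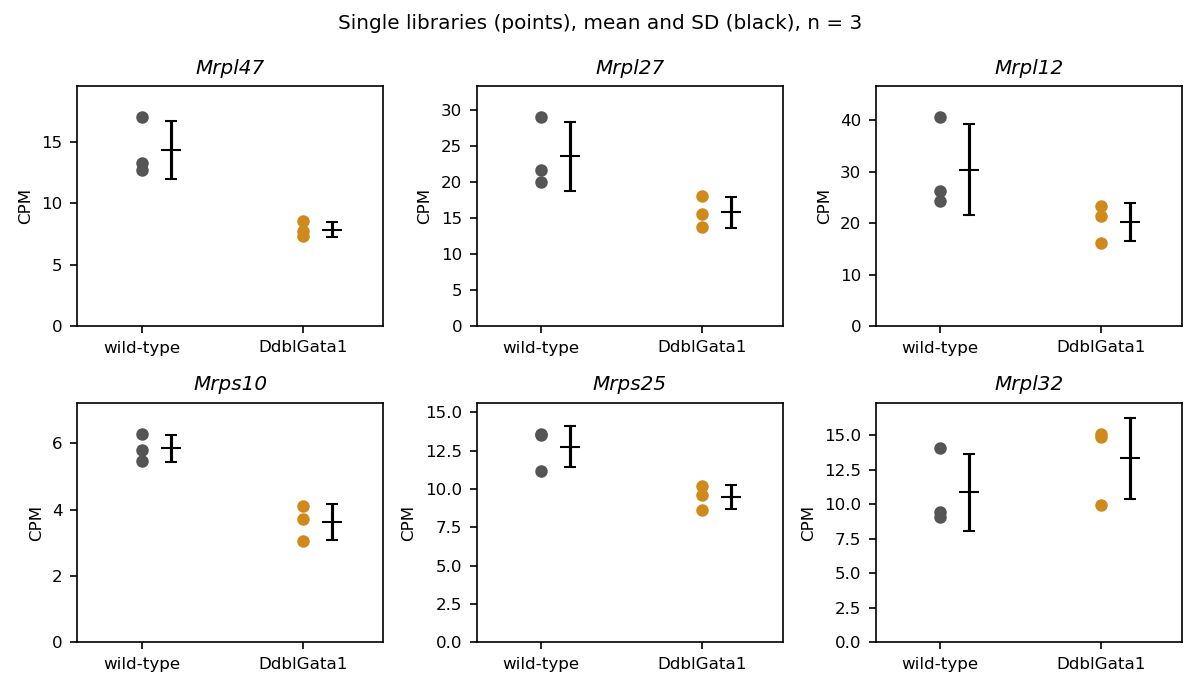
CPM of Mrpl47, Mrpl27, Mrpl12, Mrps10, Mrps25 and Mrpl32 in single libraries (points), with mean and SD (black, n = 3). The genotypes do not overlap in the first 5 genes, and in Mrpl32 the 3 DdblGata1 values (9.94 to 15.1 CPM) overlap the wild-type values (9.07 to 14.1 CPM).

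Mrpl58, a peptidyl-tRNA hydrolase built into the large subunit that frees stalled chains, had 19.6, 13.2 and 14.5 CPM in wild-type against 12.8, 11.9 and 12.6 in DdblGata1 libraries. The groups were separate by a small margin (-0.34 ± 0.20, edgeR adjusted p 0.56). The value was -0.18 without wild-type replicate 1, -0.22 with estimated counts simply summed and 0.17 with coding transcripts only. Mrpl41, a protein specific to mitochondria, had 10.6, 9.14 and 8.7, and 7.55, 8.87 and 6.97 CPM, and its groups overlapped (-0.28 ± 0.22). Of the least abundant members, Mrpl11, at the base of the stalk, had -0.26 ± 0.20, and Mrpl1, of the stalk near the exit site, -0.01 ± 0.23. Mrpl30, the most abundant, had 26.4, 22.1 and 21.1, and 19.3, 23.4 and 28.0 CPM, so DdblGata1 libraries were both its lowest and its highest (0.02 ± 0.19).

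Both large-subunit genes with the most positive values overlapped between genotypes. Mrpl32, which is cut by the m-AAA protease on import before it can join the ribosome, had 14.1, 9.07 and 9.42 CPM in wild-type against 9.94, 14.9 and 15.1 CPM in DdblGata1 libraries. Wild-type replicate 1 sat with the higher DdblGata1 values (0.29 ± 0.26, edgeR adjusted p 0.686). Its promoter, shown above, holds the NRF1 letters at nearly the same distance from the start as that of Mrpl12. Mrpl13 had 26.6, 25.2 and 21.3, and 22.8, 25.7 and 34.9 CPM, with DdblGata1 replicate 10 highest (0.19 ± 0.20). With coding transcripts only, the values were -0.02 for Mrpl32 and -0.08 for Mrpl13.

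In the small subunit Mrps10 (ENSMUSG00000034729, chr17:47368887-47381417, plus strand) had the largest difference. Its CPM were 5.46, 6.28 and 5.79 in wild-type against 4.11, 3.04 and 3.71 in DdblGata1 libraries, from counts of 177 to 182 and 92 to 115. The groups did not overlap, and wild-type replicate 1 was the lowest of its group (5.84 ± 0.411 against 3.62 ± 0.537 CPM, SD, n = 3). The log2 fold change was -0.69 ± 0.26 (edgeR adjusted p 0.461), -0.76 without wild-type replicate 1, but -0.25 ± 0.22 with estimated counts simply summed. Its leading transcript by TPM, Mrps10-207, is annotated as a retained intron, with 5.94, 9.53 and 8.47 TPM in wild-type against 3.91, 0.678 and 6.12 TPM in DdblGata1 libraries. Those ranges overlapped.

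Mrps21, whose transcripts are short (a mean of 471 bases), had 9.52, 7.72 and 6.32, and 5.9, 4.86 and 5.75 CPM. Its groups were separate (-0.51 ± 0.25, edgeR adjusted p 0.517). The value was -0.31 with estimated counts simply summed but 0.32 with coding transcripts only. Mrps25, a mitochondria-specific protein, had 13.6, 13.5 and 11.2, and 8.62, 9.63 and 10.2 CPM. No library crossed over (-0.43 ± 0.19, edgeR adjusted p 0.493, and -0.40 without wild-type replicate 1). With estimated counts simply summed the value was -0.31, and with coding transcripts only -0.27. Mrps11, a protein of the platform, had 13.3, 11.9 and 11.2, and 10.7, 10.0 and 7.43 CPM, with DdblGata1 replicate 10 lowest (-0.37 ± 0.22). Simply summed counts gave Mrps11 -0.39, and coding transcripts only -0.42. Mrps15 had 18.3, 16.7 and 15.5, and 14.4, 13.9 and 14.8 CPM, separate but close (-0.23 ± 0.17), and Mrps26 overlapped (-0.27 ± 0.18).

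Mrps12, a protein of the decoding centre, was one case where the way transcripts were summed raised the difference. Its CPM in the gene table overlapped, at 8.84, 10.0 and 8.64 in wild-type against 9.02, 7.61 and 8.43 in DdblGata1 libraries (-0.14 ± 0.21, edgeR adjusted p 0.819). Its leading coding transcript, Mrps12-204, had 27.6, 20.1 and 21.3 TPM against 17.7, 13.0 and 11.5 TPM. That transcript was separate between genotypes. The coding transcripts Mrps12-202 and Mrps12-201 were both highest in DdblGata1 replicate 4, at 8.47 and 5.79 TPM. Mrps12-203, a processed transcript of 380 bases, had 0.0, 11.1 and 0.0, and 0.0, 13.7 and 14.5 TPM, from at most 16.9 estimated counts. With estimated counts simply summed the gene had -0.57 ± 0.23 (edgeR adjusted p 0.374, unadjusted 0.0372). Its neighbour Sars2, the mitochondrial seryl-tRNA synthetase, starts 172 bases away on the opposite strand and had -0.41 ± 0.26.

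Some members named for the small subunit have other places. Mrps36 is now assigned to the 2-oxoglutarate dehydrogenase complex, and it had 15.3, 9.28 and 11.9, and 8.87, 10.6 and 9.72 CPM (-0.32 ± 0.24, and -0.14 without wild-type replicate 1), with overlap. The 3 Mrps18 paralogs take different positions: the protein of Mrps18a lies in the large subunit, and those of Mrps18b and Mrps18c in the small one. Their log2 fold changes were -0.12 ± 0.20, -0.08 ± 0.31 and -0.08 ± 0.21, and the libraries overlapped in each. Reads shared between paralogs could be split by the counting. Mrps30, whose protein is also found in the large subunit, had 20.3, 19.1 and 16.2, and 16.8, 21.8 and 21.8 CPM (0.12 ± 0.19). Mrps33 had 0.16 ± 0.28 with DdblGata1 replicate 10 highest, at 22.0 CPM, and -0.16 without that library. The most abundant, Mrps14, had 28.6, 29.1 and 25.6, and 24.8, 26.8 and 24.3 CPM, a narrow spread with overlap (-0.13 ± 0.15, and -0.38 with coding transcripts only).

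Some members had much of their TPM in transcripts of types other than protein-coding. In 23 of 78 members the leading transcript was not annotated as protein-coding. In the large subunit these were 7 processed transcripts, 5 subject to nonsense-mediated decay and 2 retained introns. In the small subunit they were 4 processed transcripts and 5 retained introns. The share of all genes with such a leading transcript was not computed, so whether this sets the members apart is not known. Among the 71 members with 2 or more transcripts, the leading share differed by more than 10 percentage points between genotype means in 17. Of 12969 tested genes with 2 or more transcripts, 28.3% differed by that much. It did not overlap between the genotypes in 5 members, where 8.4% of those genes did not, so neither count of members exceeded the share over all genes. The 5 were Mrpl42, Mrpl47, Mrpl48, Mrps9 and Mrps12, some of which are named after their values were seen. Mrpl42-203 took 92.3, 71.8 and 73.6% of its gene's TPM in wild-type against 50.2, 59.1 and 50.2% in DdblGata1 libraries. Mrps12-204 took 95.8, 63.4 and 72.3%, and 55.4, 48.8 and 40.7%. With coding transcripts only, 40 of 49 large-subunit genes had values below 0 (median -0.17) and 24 of 29 small-subunit genes (median -0.15). Over all genes 52.1% were below 0 in that fit, with a median of -0.02. With estimated counts of all transcripts simply summed, the counts were 41 of 49 (median -0.22) and 28 of 29 (median -0.16), where 52.2% of all genes were below 0. In both fits the 2 medians were closer to 0 than in the gene table.

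Sequence composition moved with the fold change. Over all tested genes, the median log2 fold change in 5 bins of equal size by GC content of the transcripts, from low to high, was 0.23, 0.08, -0.02, -0.11 and -0.20. Among the members (6, 11, 27, 21 and 13 genes) the medians were 0.06, -0.13, -0.19, -0.29 and -0.33, below those of all genes in each bin. The correlation of fold change with GC content was a Spearman rho of -0.517 over the 78 members and -0.381 over all genes, as a description across genes that share the same 6 libraries. Members were short, with a median of 1001 bases against 2388 for all genes. In the shortest of 5 bins were 61 of them, and there the median was -0.13 over all genes and -0.26 over members. The effective length used for TPM differed between libraries in short transcripts. For Mrpl47-202 it was 160, 195 and 160 bases in wild-type against 161, 183 and 198 in DdblGata1 libraries. Mrps33-202, of 500 bases, had 14.8, 40.1 and 14.7, and 14.1, 32.9 and 60.0 TPM. The part of this split between libraries in the members' values was not tested. With an offset for GC content and length in the edgeR fit, chosen after the data were seen, 37 of 49 large-subunit genes were below 0 (median -0.10) and 20 of 29 small-subunit genes (median -0.07), against 51.3% of all genes. Both medians were closer to 0 with the offset than without it. Among the members described above, the offset gave -0.33 for Mrpl28, -0.35 for Mrpl12, -0.32 for Mrpl51, -0.27 for Mrpl17, -0.10 for Mrpl58 and -0.11 for Mrpl41. In the small subunit it gave -0.25 for Mrps21, -0.17 for Mrps11, -0.04 for Mrps15 and 0.02 for Mrps26. The offset gave -0.41 for Mrpl27, -0.56 for Mrps10 and -0.33 for Mrps25. Mrpl47 moved away from 0, from -0.87 to -0.95.

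**Figure D5:**
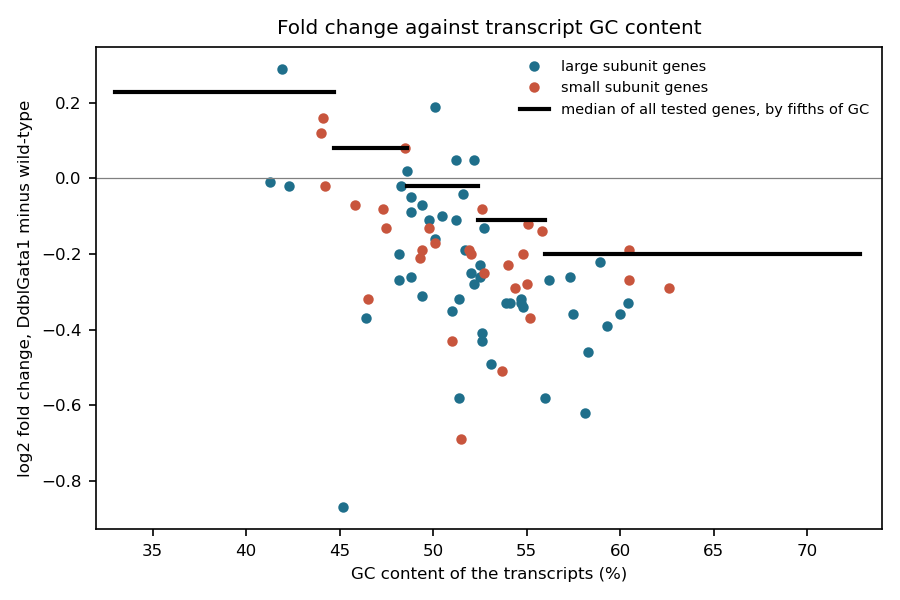
Log2 fold change (DdblGata1 minus wild-type) of each large-subunit and small-subunit gene against the GC content of its transcripts in percent, with the median of all tested genes in each of 5 bins of GC content (black bars). Members and all genes both have lower values at higher GC content, and most members lie below the black bars.

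Some members start close to another gene. A protein-coding gene began on the opposite strand, head to head, within 1000 bases of 12 of 49 large-subunit genes (24.5%) and 6 of 29 small-subunit genes (20.7%), against 9.05% of 14797 tested protein-coding genes. The outermost annotated start of each gene was used, so pairs that overlap there were not counted. Such a pair is Mrps11 and Mrpl46, both members. The promoter window of Mrpl46 (chr7:78783040-78783339, minus strand) overlaps that of Mrps11 shown above. Of the 18 neighbours 17 were tested, and 7 had a value below 0 (median 0.07). Mrpl54 had -0.33 (0.03 with the offset for GC content and length), and Apba3, which starts 26 bases away, had 0.28 ± 0.21. Mrpl51 had -0.49 and Ncapd2, a condensin subunit at 100 bases, -0.12 ± 0.24. Mrpl49 had -0.07 and Fau, which encodes a cytosolic ribosomal protein, -0.19 ± 0.15 at 59 bases. Neighbours named here were chosen after their values were seen. Of the 13 members below 0 with a tested neighbour, 7 had a neighbour below 0, where 50.7% of all tested genes were below 0. In the 4 pairs whose member was above 0 the neighbour was above 0 too, so 11 of 17 pairs had the same sign. The share of same signs over all such pairs is not given here. These counts are therefore not read as a result about the members.

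Other genes of the mitochondrial ribosome were examined as lists. Of 5 further subunits without the Mrp name, 4 were below 0 (median -0.13), and 1 was lower at an unadjusted edgeR p under 0.05. That gene, Aurkaip1, a small-subunit protein, had 38.9, 32.9 and 34.3, and 28.8, 24.6 and 25.5 CPM, without overlap (-0.43 ± 0.16, edgeR adjusted p 0.455). Of 26 assembly factors 20 were below 0 (median -0.11), and none reached that p in either direction. Mrm2, a methyltransferase of the ribosomal RNA, had -0.56 ± 0.29. The 18 measured translation factors had a median of 0.10 and 8 values below 0. Mrrf, the recycling factor, had -0.55 ± 0.25, and Mtfmt, which formylates the initiator tRNA, 0.59 ± 0.27. Of the 20 mitochondrial tRNA synthetases and related enzymes 13 were below 0 (median -0.07), with Nars2 at -0.58 ± 0.26. Over all tested genes 50.7% were below 0. Without wild-type replicate 1 the medians were -0.04 for further subunits, -0.05 for assembly factors, 0.01 for translation factors and 0.06 for tRNA synthetases. With the offset for GC content and length they were -0.03, -0.03, 0.10 and 0.01, in the same order.

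The messenger RNAs that this ribosome translates were measured as well. Of 12 measured mitochondrially encoded genes 8 were below 0 (median -0.32), and 1 was lower at an unadjusted edgeR p under 0.05, mt-Cytb, the cytochrome b of complex III (-0.51 ± 0.21, edgeR adjusted p 0.483). They took 5.95, 5.92 and 4.11% of counts in wild-type against 3.40, 3.96 and 4.76% in DdblGata1 libraries, so the genotypes overlapped, and wild-type replicate 3 was as high as replicate 1. Among 27 genes of import and general mitochondrial function 20 were below 0 (median -0.17), and 2 were lower by that rule. Without wild-type replicate 1 the medians were -0.30 for the mitochondrially encoded genes and -0.10 for the import list. With the offset for GC content and length they were -0.57 and -0.09. Timm17b, a part of the inner membrane translocase, had 22.7, 21.6 and 22.1, and 17.3, 14.4 and 12.9 CPM (-0.57 ± 0.18, edgeR adjusted p 0.416), and the ADP/ATP carrier Slc25a5 had -0.58 ± 0.19.

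Regulators and the cytosolic ribosome had other values. Of 19 regulators of mitochondrial transcription and biogenesis 9 were below 0 (median 0.02), and 2 were higher at an unadjusted edgeR p under 0.05. Pprc1, a coactivator that works with NRF1, had 24.9, 21.3 and 38.3, and 40.6, 64.4 and 39.5 CPM (0.78 ± 0.28, edgeR adjusted p 0.45). Myc, a growth regulator, had 25.9, 24.0 and 23.9, and 26.3, 41.2 and 42.2 CPM (0.57 ± 0.21, edgeR adjusted p 0.452). In neither gene did the genotypes overlap. Without wild-type replicate 1 the median of the regulators was 0.06. The 84 cytosolic ribosomal protein genes had a median of -0.02, with 44 below 0 and none at an unadjusted edgeR p under 0.05 in either direction. Their median was -0.01 without wild-type replicate 1 and 0.15 with the offset for GC content and length. A difference between that list and the mitochondrial one was not tested.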

How the data were processed

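Per the labels' protocols, library preparation was stranded, with 100 ng of RNA per sample as input. Tools in the submitters' processing notes are kallisto, bcl2fastq 2.2, DESeq2 and R 4.2.2, with the builds GRCm38.p6 and mm10. The role of each is not given in the sources used. In the gene table the authors deposited are whole-number expected counts of 15238 genes, each with at least 10 counts in at least 3 libraries. Of its values, 99.7% equalled transcript TPM summed per gene, scaled by mean length and library total, within 1% plus 1 count, and 26.2% equalled plain sums of estimated counts. The authors' transcript files give estimated counts, TPM and other values (effective lengths in bases) for 115270 transcripts, of which 113580 were placed in genes with GENCODE M21. The sample sheet the authors deposited gives size factors as a ratio and 2 surrogate variables as a score.

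Groups were taken from the genotype labels. Testing used edgeR 4.0.16 under R 4.3.3. Its steps were filterByExpr (0 genes removed), TMM scaling, robust quasi-likelihood fits without covariates, and Benjamini-Hochberg adjustment over all genes at 0.05. CPM are TMM-scaled. Alternatives used DESeq2 1.42.0, limma 3.58.1 on voom values and on log2(TPM + 1) and log2(TPM + 0.1), other scalings and filters, and each library left out. The fits were tested on simulated data, where DESeq2 made more false calls than its threshold allows, so its calls near the threshold are uncertain. Promoter windows (75 for 69 members) came from RefSeq, and 69 of the windows had their transcribed part in a GENCODE transcript.

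Genes named are, per subunit, the 6 with the smallest p, the 2 with the highest and the 2 with the lowest mean TPM and the 2 most positive fold changes. To these were added, by role, Mrpl12, Mrpl41, Mrpl58, Mrps12, Mrps18a, Mrps18b, Mrps18c and Mrps36, and up to 3 genes of each other list by smallest p. Members and lists were chosen with earlier results of these data known. A few genes named outside this rule were chosen after their values were seen. Errors are the SD over 3 libraries, the SD over all 6 libraries for a member's mean TPM, or the SE of the fit.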

Additional observations from a re-analysis of the deposited data

How the results depend on the processing

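Both medians stayed below 0 under all alternatives run. When single libraries were left out, the large-subunit median ranged from -0.34 to -0.15 and the small-subunit median from -0.27 to -0.14. The large-subunit median was -0.10 with the offset for GC content and length and also without wild-type replicate 1 and DdblGata1 replicate 10 together. These 2 settings, the deposited surrogate variables, plain transcript sums and coding transcripts only were chosen after seeing the data. edgeR called 0 genes (919 higher and 645 lower at an unadjusted p under 0.05), DESeq2 called 214, and edgeR called 0 to 1 when single libraries were left out (1 without DdblGata1 replicate 4). The count of lower large-subunit genes at an unadjusted p under 0.05, 5, was 2 with log2(TPM + 1), log2(TPM + 0.1), both libraries left out, the offset or coding transcripts only, 3 with plain sums, and 1 to 5 without single libraries. The small-subunit count, 1, was 2 by DESeq2, on both TPM scales, with the surrogate variables and with coding transcripts only, 0 with both libraries left out or the offset, and 0 to 1 without single libraries. The cause of these changes was not tested. Shares of all genes at that p are not given here for these settings, so the counts are not read as results about the members. No paired analysis was possible because the groups share only the replicate number 4.

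The sign of single genes changed, including members with a large difference in the main analysis (Mrpl47, -0.87; Mrps21, -0.51; Mrpl58, -0.34) when only coding transcripts were summed. Coding transcripts only gave 0.03 for Mrpl1, -0.08 for Mrpl13, -0.02 for Mrpl32, 0.02 for Mrpl47, 0.17 for Mrpl58 and 0.32 for Mrps21. The offset gave 0.10 for Mrps12, 0.13 for Mrps18a, 0.08 for Mrps18b, 0.02 for Mrps26 and -0.08 for Mrps30. Not every change of sign is listed. For example, the offset also gave 0.11 for Mrpl14, 0.03 for Mrpl54, 0.09 for Mrps24 and 0.10 for Mrps34. Coding transcripts only gave 0.62 for Mrps16. The surrogate variables gave -0.04 for Mrpl30, 0.13 for Mrps18b and -0.16 for Mrps33, and plain sums 0.02 for Mrpl1 and -0.01 for Mrps33. Without both libraries the values were -0.04 for Mrpl30, 0.29 for Mrps18b, 0.00 for Mrps18c and -0.21 for Mrps33. Mrpl1 had 0.00 by limma-voom and 0.07 and 0.08 on the TPM scales, where Mrps18c had 0.01. Leaving out single libraries gave -0.16 to 0.10 for Mrpl1, -0.02 to 0.31 for Mrpl13, -0.13 to 0.15 for Mrpl30, -0.37 to 0.13 for Mrps18b, -0.17 to 0.04 for Mrps18c and -0.16 to 0.36 for Mrps33. DESeq2 called Mrpl47 (adjusted p 0.0215) where edgeR did not. Depth limits single genes: the lowest member count was 92.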
